A study of Mus musculus with 2 samples.

Results

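Glutathione, thioredoxin and peroxide defence was followed through 56 mouse genes, taken by symbol: the glutathione transferases outside the mu class, the enzymes that make and recycle glutathione, the thioredoxin, peroxiredoxin and glutaredoxin systems, catalase and the superoxide dismutases, and the NRF2 regulators with some of their targets. A gene was read only through array probe sets annotated to that gene alone. Of the 56 genes, 50 had such a probe set, 91 probe sets in all, against 18193 genes with one on the whole array. Gsta1, Gstp2, Ggt1, Prdx1, Prdx5 and Prdx6 had none and were not analysed here.

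RNA came from hepatocytes of male FVB mice aged 6 to 8 weeks. The control cells too came from injected animals: the labels give both groups the same hydrodynamic tail vein injection, in which a large volume is pushed rapidly into the vein so that plasmid DNA enters hepatocytes. It carried 10 µg of PT3EF5α EzrinT567D, a plasmid for ezrin with an acidic residue at the regulatory threonine, and 0.8 µg of pCMV/SB, which supplies a transposase, in 2 ml of 0.9% saline. After 1 week the liver was digested with collagenase, and GFP fluorescence divided the hepatocytes into an EzrinT567D negative and an EzrinT567D positive fraction, with 1 array each. Per its title, the series asks how phosphorylated ezrin acts on the Hippo pathway and Yap.

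The labels conflict on diet and time. The growth protocol names a chow diet for every mouse and the source names put the cells 1 week after injection. The description fields instead speak of 2 months, and of chow in the negative but a fast food diet in the positive case. Fraction, diet and array cannot be told apart in this design. The number of mice, and whether their RNA was pooled, could not be established from the labels, so every difference is between 2 arrays, with no error between animals and no test.

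Glutathione is a tripeptide built on cysteine that hepatocytes hold at high concentration. Transferases attach it to reactive compounds, glutathione peroxidases spend it to remove peroxides, and glutathione reductase restores it with NADPH. Thioredoxin, kept reduced by thioredoxin reductases, does the same for peroxiredoxins. The transcription factor NRF2, encoded by Nfe2l2, drives many of these genes. KEAP1 holds it back until oxidants or electrophiles modify KEAP1.

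The values are MAS5 signals, scaled so that the trimmed mean of each array is 500. Receptors for odours, pheromones, bitter taste and trace amines, which hepatocytes are not expected to express, gave a background floor: the 95th percentile of their 84 probe sets, a signal of 252.7 on the negative and of 334.0 on the positive array. Ezrin itself (Ezr) stayed under both floors, at 135.3 and 15.7 in one probe set and at 7.6 and 13.6 in the other (negative first, then positive, here and below), so the sort labels could not be checked through it. Of the 10 hepatocyte markers listed, 9 had a probe set, and all 9 were above the floor, with log2 ratios from -0.39 to 0.03. No cholangiocyte or neutrophil marker with a probe set exceeded the floor in either array, and of 7 lymphocyte markers 1 did, in 1 array. Of 11 Kupffer cell and macrophage markers 5 did in at least 1 array, among them Clec4f, and the 11 summed to signals of 4102 and 3083. Sinusoidal endothelial markers summed to 5586 and 5851, and stellate cell markers to 3719 and 3405. The part of these cells in the results was not tested. In RNA from many cells, fewer cells of a type and less RNA per cell cannot be told apart.

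Most of the defence genes read nearly the same in the fractions labelled EzrinT567D negative and positive. Of the 50 genes with a probe set of their own, 42 were above the floor in both arrays, 2 (Gpx3 and Txnrd2) only in the positive array, and 6 (Mgst2, Gpx7, Gpx8, Sod3, Glrx3 and Nqo1) in neither. Among the 42, 29 genes (69%) differed by no more than 1.2-fold, against 58.4% of all 8362 genes that passed both floors. Above a mean signal of 1000 the shares were 71.1% of 38 defence genes and 66.1% of all genes. The limit was set after the values were seen, and the gap to the background depends on it: within 1.25-fold the shares were 71.4% and 67.4%, and above a mean signal of 1000 they were 73.7% and 74.9%. The highest ratios of the 42 were those of the thioredoxin reductase Txnrd1 (1.74-fold) and the alpha class transferase Gsta3 (1.49-fold). The lowest were those of the transcription factor Nfe2l1 (1.45-fold lower) and the transferases Gsto1 (1.44-fold) and Gsta2 (1.43-fold).

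At least 2-fold higher signals were counted for 1 of the 44 genes above the floor in at least 1 array, Txnrd2, as a lower bound, against 1.34% of all 10178 genes above the floor. Only its brightest probe set stands behind the count, and 2 of its 4 probe sets read lower in the positive array. The call rests on the floor, the scaling and the probe sets: the count was 0 under 6 of 12 alternatives. One of them is a floor set with sweet and umami taste receptors and without pseudogenes, the set used first, which gave floors of 276.6 and 334.0. With the probe set of highest single signal standing for each gene, the count was 2, with Txnip. No gene was at least 2-fold lower, against 0.58% of all genes. At least 1.5-fold higher signals were found for 3 of 44 genes, Txnrd1, Txnrd2 and Gpx3, or 6.82%, against 6.57% of all genes. No gene was at least 1.5-fold lower, against 3.98%. The share on the higher side was close to the background.

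**Figure D1:**
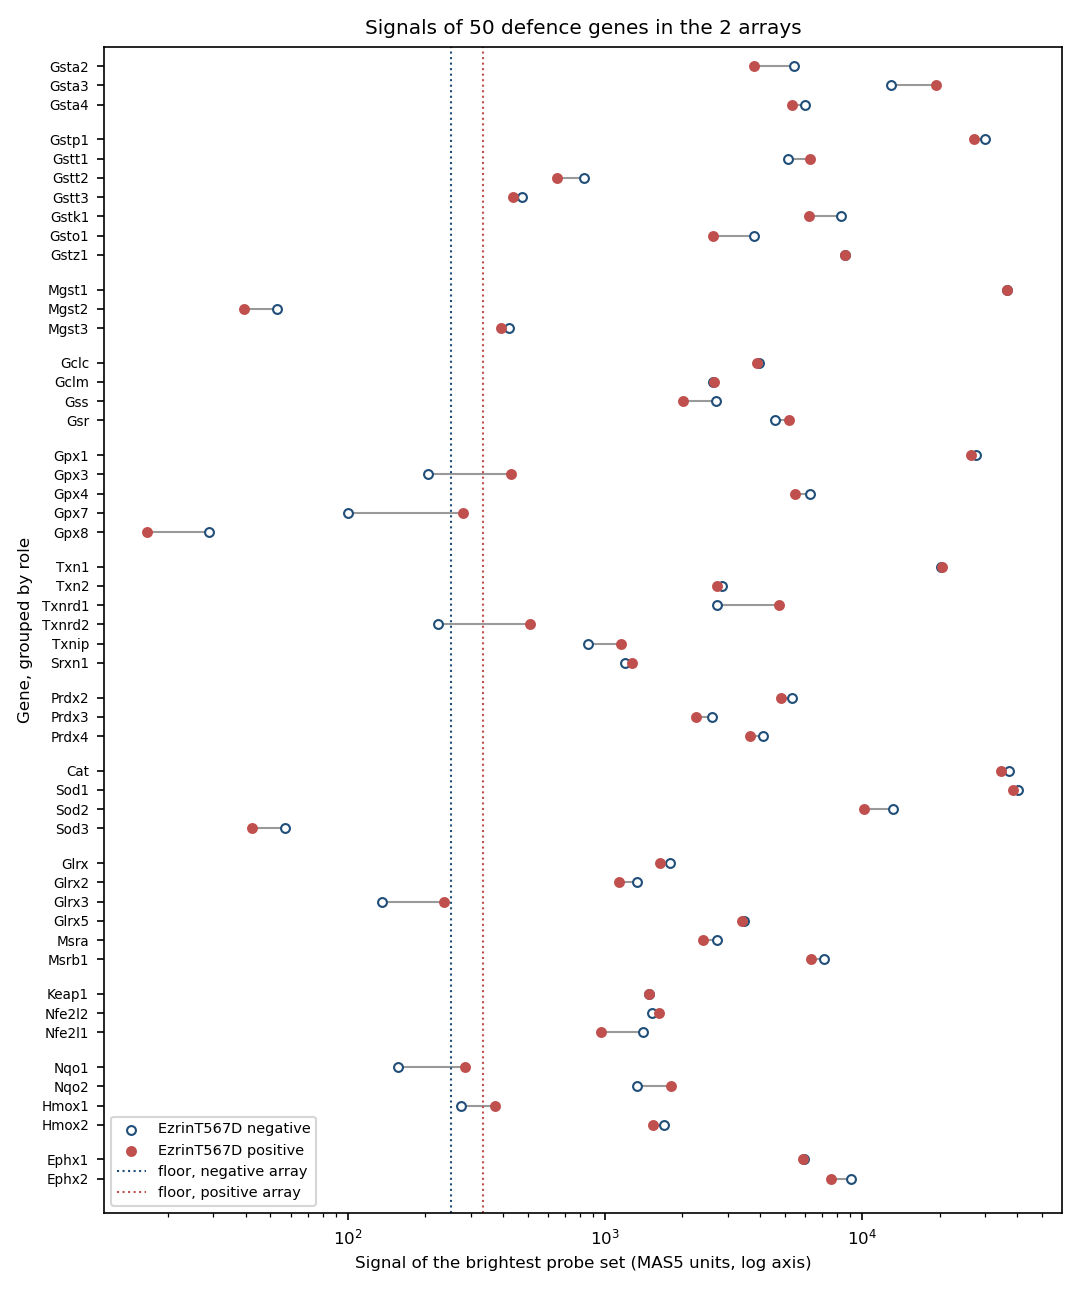
Signals of the brightest probe set of each of the 50 defence genes (MAS5 units, log axis) in the EzrinT567D negative (open circle) and positive (filled circle) array, grouped by role, with the floor of each array as a dotted line. Most pairs of circles nearly coincide, while Txnrd1, Gsta3 and, on the opposite side, Gsto1 and Nfe2l1 are set apart above the floor. Distances are read within a gene, since signals of different probe sets are not on one scale.

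The available yardstick is the agreement of probe sets for one gene. Where a gene had several probe sets that passed both floors (3182 genes), the brightest pair gave log2 ratios whose difference had an SD of 0.42. Transcript variants add to that SD, and variation among animals is no part of it. As the SD of a difference between 2 ratios, it is a wide limit for a single ratio. The ratios of all 8362 genes past both floors had an SD of 0.37. The limit of 0.42 was exceeded on the higher side by 5 of the 42 defence genes, or 11.9% (Gsta3, Hmox1, Nqo2, Txnip and Txnrd1), against 12.3% of all genes. On the lower side it was exceeded by 4, or 9.52% (Gss, Gsta2, Gsto1 and Nfe2l1), against 8.99%.

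The direction of the many small differences was less even. Of the 42 genes 29 (69%) were lower by any amount and 13 (31%) higher, with a median log2 ratio of -0.11, against 49.4% lower, 50.6% higher and a median of 0.0043 over all genes. Bright genes in general read lower in the positive array. Among the 3929 genes with a mean signal above 1000, 60.9% were lower, and 26 of the 38 defence genes in that range (68.4%) were. After a loess correction for signal the split was 20 higher and 22 lower with a median of -0.01, and after quantile normalization it was 18 and 24 with a median of -0.03. Of all genes past both floors, 49.9% were lower after loess and 50.4% after quantile normalization.

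**Figure D2:**
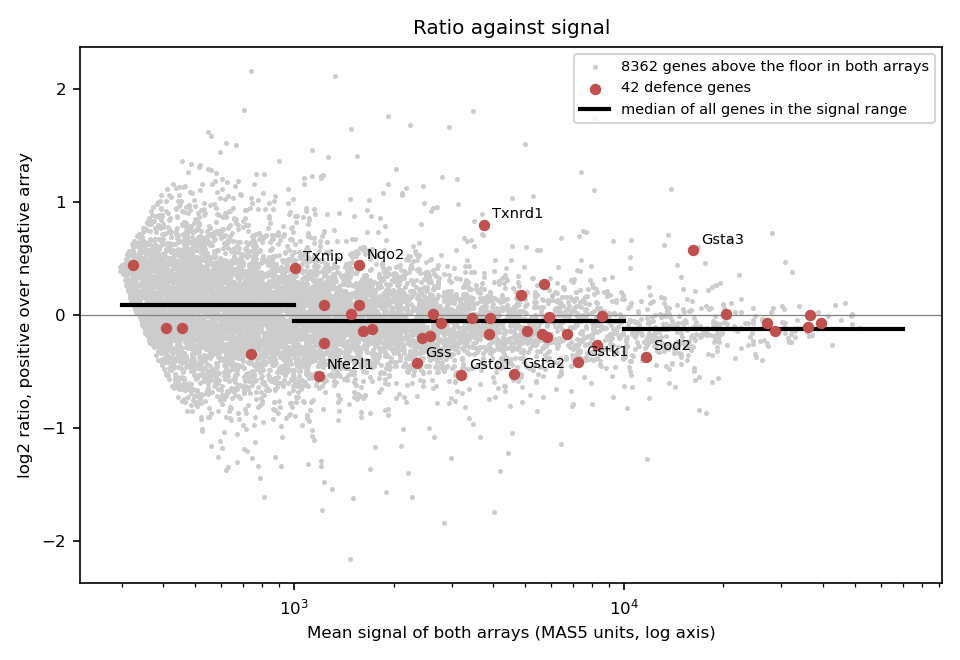
Each gene's log2 ratio, positive over negative, against its mean signal (MAS5 units, log axis) for the 8362 genes that passed both floors (grey) and the 42 defence genes among them (red), with the median of all genes in 3 signal ranges (bars). The bars lie at 0.09, -0.05 and -0.13 from dim to bright, and the defence genes of the brightest range have a median of -0.07.

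Alpha class transferases, which conjugate glutathione to electrophiles and reduce lipid hydroperoxides, did not share a direction. Gsta3 read 12971.2 in negative and 19362.5 in positive hepatocytes (probe set 1423436_at), and its other probe set read 4204.8 and 6389.0. Both were higher in the positive array by nearly the same amount, with log2 ratios of 0.58 and 0.60, or 1.49-fold in the brighter. Gsta2 read 5444.6 and 3803.6 and was 1.43-fold lower (log2 ratio -0.52). A probe set annotated to Gsta1, Gsta2 and Gm3776 together had a log2 ratio of -0.21. Gsta4, which favours the lipid aldehyde 4-hydroxynonenal, had a log2 ratio of -0.17.

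The other soluble transferases were mostly lower by small amounts, 6 of 7 against 1 higher, with a median log2 ratio of -0.14, and 5 of 7 after loess. Of the 7, 5 had mean signals above 1000, where 60.9% of all genes read lower as deposited. After loess 49.9% of all genes past both floors were lower. Gsto1, an omega class enzyme with thioltransferase and dehydroascorbate reductase activity, read 3782.1 and 2625.9 in its brightest probe set. It was 1.44-fold lower there (log2 ratio -0.53), and its second probe set had a log2 ratio of -0.46. Gstk1, the kappa class enzyme of mitochondria and peroxisomes, read 8270.0 and 6205.0, a log2 ratio of -0.41. The theta class genes were divided, with Gstt1 at 0.28, Gstt2 at -0.35 and Gstt3 at -0.11. Gstp1, the pi class enzyme, had a log2 ratio of -0.14 through a probe set that the nearly identical Gstp2 transcript could also bind. Gstz1, which also isomerises maleylacetoacetate in tyrosine breakdown, had a ratio of -0.01.

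Of the microsomal transferases, Mgst1 read 36516.3 and 36536.6, a log2 ratio of 0.00, and Mgst3 had a ratio of -0.11. Mgst2 lay below the floor in both arrays, at 53.0 and 39.3.

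The genes that make glutathione read level in their brightest probe sets, except for the last step. Glutamate-cysteine ligase, the rate-limiting enzyme, has a catalytic subunit, Gclc, and a modifier subunit, Gclm. Gclc read 3958.7 and 3882.8 in its brightest probe set (log2 ratio -0.03) and 3070.5 and 4544.7 in the other (0.57), so its probe sets disagreed by more than the SD between probe sets, and the other holds the highest single signal. Gclm read 2630.0 and 2647.9 (0.01) and 1845.2 and 1642.0 (-0.17). Glutathione synthetase, Gss, which adds glycine, read 2690.3 and 2009.6, 1.34-fold lower, with log2 ratios of -0.42 and -0.50 in its 2 probe sets. Glutathione reductase, Gsr, read 4577.1 and 5182.8, with ratios of 0.18 and 0.13.

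Of the glutathione peroxidases, the abundant cytosolic enzyme Gpx1 read 27780.5 and 26456.8, a log2 ratio of -0.07, which turned positive after loess and after quantile normalization. Gpx4, which reduces lipid hydroperoxides in membranes, read 6247.4 and 5458.1 (-0.19) in one probe set and 1385.2 and 1648.8 (0.25) in the other, so no direction can be given. Gpx3, the secreted plasma enzyme, read 205.4, below the floor, and 432.2, which makes it at least 1.71-fold higher, and with the 99th percentile floor the bound was 0.34 on the log2 scale. Gpx7 (99.8 and 280.3) and Gpx8 (28.8 and 16.6), which reside in the endoplasmic reticulum, were not above the floor.

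The thioredoxin system was uneven, with log2 ratios from -0.07 to 0.80 and a median of 0.09 over 5 genes past both floors. Txnrd1, the cytosolic thioredoxin reductase and a selenoprotein, read 2737.4 and 4765.0 in its brightest probe set, 1302.8 and 1640.0 in the second and 517.5 and 764.0 in the third. All 3 were higher in the positive array, with log2 ratios of 0.80, 0.33 and 0.56, and the first, 1.74-fold, ranked highest of the 42 genes. Txnip, which binds thioredoxin and blocks it and which responds to glucose, read 858.8 and 1149.2 in one probe set and 610.3 and 1368.7 in the other. Both were higher, but by unequal amounts of 0.42 and 1.17, and which of them stands for the gene turns on whether the mean or the highest single signal ranks the probe sets. Its substrate partner, thioredoxin itself (Txn1), read 20249.8 and 20449.2, a ratio of 0.01, while a dimmer probe set had 0.41.

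Txnrd2, the mitochondrial thioredoxin reductase, cannot be given a direction. Its brightest probe set (1451936_a_at) read 224.0 and 510.9, at least 2.02-fold higher, and another read 151.5 and 482.8. The other 2 read 353.5 and 279.7, and 351.6 and 247.3, lower in the positive array. All 4 lay below the floor in 1 of the arrays. Txn2, the mitochondrial thioredoxin, read 2844.2 and 2713.6 (-0.07), with its dimmer probe sets at -0.04 and 0.17. Srxn1, the sulfiredoxin that repairs overoxidised peroxiredoxins, read 1192.0 and 1271.8, and its 3 probe sets above the floor had ratios of 0.09, 0.10 and 0.17.

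**Figure D3:**
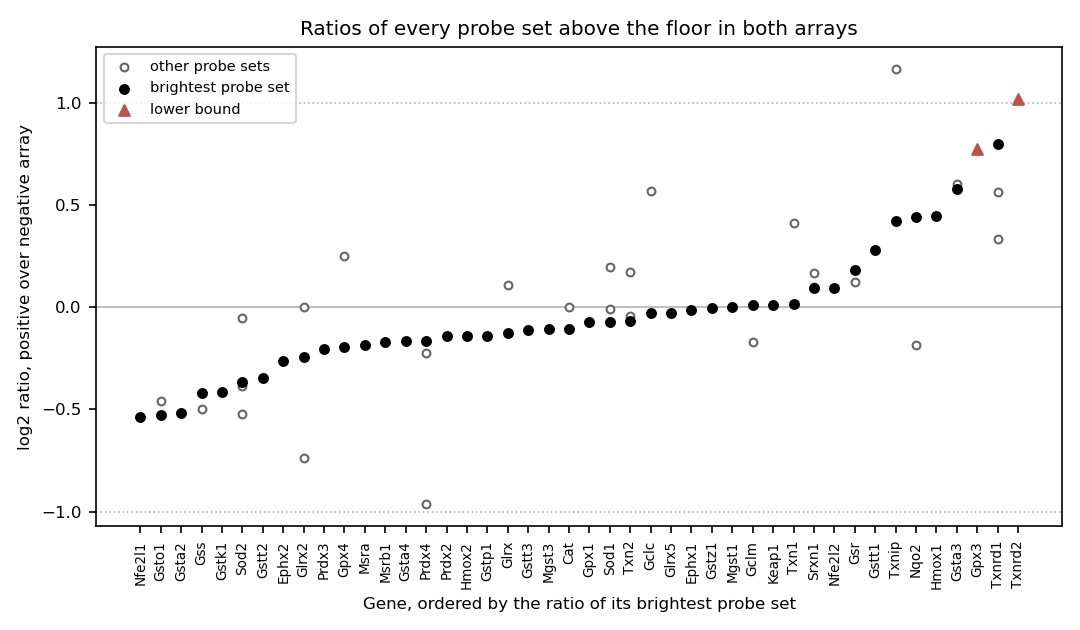
log2 ratios, positive over negative, of every probe set that passed both floors, for each gene in order of its brightest probe set (filled circle), with its other probe sets (open) and the lower bounds of Gpx3 and Txnrd2 (triangles); dotted lines mark 2-fold. The 3 Txnrd1 probe sets and both of Gsta3, Txnip, Gsto1 and Gss lie on one side of 0, while Gclc, Gpx4 and Nqo2 lie on both.

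Peroxiredoxins, which remove hydrogen peroxide through a reactive cysteine, were read for 3 of 6 genes, and all 3 were slightly lower, also after loess and quantile normalization. All 3 had mean signals above 1000, where 60.9% of all genes read lower as deposited. Over all genes past both floors, 49.9% were lower after loess and 50.4% after quantile normalization. Cytosolic Prdx2 had a log2 ratio of -0.14, mitochondrial Prdx3 -0.20 and Prdx4, the form of the endoplasmic reticulum, -0.17. Another Prdx4 probe set, 1435731_x_at, read 4158.1 and 2130.7, a ratio of -0.96, which the other 2 above the floor (-0.17 and -0.22) did not share, and it holds the highest single signal for the gene. Prdx1 was covered only by 5 probe sets annotated together with the locus Gm21399, with log2 ratios from -0.21 to 0.09.

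Catalase, the peroxisomal enzyme that splits hydrogen peroxide, read 37308.8 and 34659.1 in one probe set and 31878.1 and 31943.8 in the other, log2 ratios of -0.11 and 0.00. After loess the signs of Cat and Sod1 turned. Sod1, the cytosolic superoxide dismutase, read 40520.0 and 38594.2 (-0.07) and 32208.0 and 31981.1 (-0.01) in its bright probe sets, and a dim one had 0.19. Sod2, the mitochondrial dismutase, read 13122.9 and 10189.1 and was 1.29-fold lower. All 4 of its probe sets were lower, with ratios of -0.37, -0.38, -0.52 and -0.05. Red blood cells also hold much Cat, Sod1 and Prdx2. Of the 4 erythroid markers with a probe set, Hba-a1 was below the floor in both arrays at 222.7 and 62.9, Alas2 passed both floors and Slc4a1 and Hbb-b2 one each, and the 4 summed to 1338 and 1219. Secreted Sod3 was below the floor in both arrays.

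Glutaredoxins, which use glutathione to reduce mixed disulfides, and methionine sulfoxide reductases, which repair oxidised methionine, had small ratios. By brightest probe set 5 of 5 were lower, with a median of -0.17, against 60.9% of all genes with mean signals above 1000, as theirs were. With the second brightest probe set 2 were higher, Glrx and Glrx2, and the 3 still lower have only 1 probe set each. After loess 4 were lower, against 49.9% of all genes past both floors. Glrx read 1791.1 and 1641.4 (-0.13), with its other probe set at 0.11. Glrx2 read 1337.1 and 1129.6 (-0.24), with other probe sets at 0.00 and -0.74. Glrx5, which acts in iron-sulfur cluster assembly, had a ratio of -0.03, Msra of -0.19 and the selenoprotein Msrb1 of -0.17. The one Glrx3 probe set without another locus lay below the floor.

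The regulators themselves were level apart from one. Nfe2l2, the gene for NRF2, read 1519.0 and 1621.2, a log2 ratio of 0.09, and Keap1 read 1476.6 and 1489.2, a ratio of 0.01. Transcript levels say little of NRF2 activity, which is set mainly through the stability of the protein. Nfe2l1, the gene for NRF1, a related factor of the endoplasmic reticulum that drives proteasome genes, read 1401.3 and 967.1 (probe set 1416331_a_at). At 1.45-fold lower (-0.54) it had the lowest ratio of the 42 genes, through 1 probe set.

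Of the classical NRF2 targets, how many read higher depended on the scaling. Of the 12 listed among the defence genes, a list put together after the values were seen, 9 were above the floor in both arrays, 6 higher and 3 lower, with a median of 0.01. After loess the split was 8 to 1 with the median at 0.12, and after quantile normalization the split was the same, with a median of 0.09. Of all genes past both floors, 49.4% were lower as deposited, 49.9% after loess and 50.4% after quantile normalization. Above a mean signal of 1000, which held 8 of the 9, 60.9% of all genes were lower as deposited. Nqo1, the quinone reductase often used as the marker of NRF2 activity, read 157.2 and 284.6, below the floor in both arrays. Hmox1, the inducible heme oxygenase, read 274.4 and 373.8, 1.36-fold higher, with the negative signal just above its floor. Its constitutive relative Hmox2 had a ratio of -0.14. Nqo2 read 1330.1 and 1805.0 (0.44) in its brightest probe set, but 1158.6 and 1020.2 (-0.18) in the next.

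Epoxide hydrolases open reactive epoxides. The microsomal enzyme Ephx1, 1 of the 12 NRF2 targets listed above, read 5960.1 and 5894.9, a ratio of -0.02. Soluble Ephx2, which turns over fatty acid epoxides, read 9042.6 and 7539.3, a ratio of -0.26.

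NRF2 acts through the antioxidant response element, whose core TGACNNNGC was searched on both strands of RefSeq promoter windows (GRCm38.p6, 250 bases before to 50 after each start). Of 47 defence genes in that table, 9 held a match (19.1%), against 14% of all 27025 genes. The promoters of Gsta3 and Txnrd1 are shown whole, because by brightest probe set these genes had the highest ratios among the 42, with every probe set above the floor higher, and the match is in capitals. Gsta3 lies at chr1:21240335-21240634 and the matching Txnrd1 window, 1 of 3 for that gene, at chr10:82858956-82859255, both on the plus strand.
Gsta3: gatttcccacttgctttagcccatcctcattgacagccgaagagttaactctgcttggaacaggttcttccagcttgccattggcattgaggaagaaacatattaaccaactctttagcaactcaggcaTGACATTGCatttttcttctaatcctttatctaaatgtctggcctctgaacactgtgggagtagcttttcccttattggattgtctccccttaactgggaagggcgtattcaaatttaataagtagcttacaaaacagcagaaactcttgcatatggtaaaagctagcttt
Txnrd1: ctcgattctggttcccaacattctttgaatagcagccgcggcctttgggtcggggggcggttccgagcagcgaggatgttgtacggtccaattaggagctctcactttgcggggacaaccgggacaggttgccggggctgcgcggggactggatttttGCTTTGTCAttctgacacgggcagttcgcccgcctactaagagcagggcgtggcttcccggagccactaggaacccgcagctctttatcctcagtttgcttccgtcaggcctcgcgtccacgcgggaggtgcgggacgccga
The Gsta3 match reads along the gene from 121 bases before the start, and the Txnrd1 match lies on the opposite strand, 92 bases before it. A match only says that these letters are in the window.

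Genes with ratios near 0 held the same core. The stretches below show it, in capitals, in Gclm and Srxn1, in Nfe2l2 itself and in Mgst1, with 12 bases on either side where the window allows. They lie at chr3:122245411-122245443, chr2:152105540-152105572, chr2:75704883-75704913 (minus strand) and chr6:138140459-138140491.
Gclm: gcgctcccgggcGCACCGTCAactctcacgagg
Srxn1: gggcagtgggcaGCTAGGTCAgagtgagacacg
Nfe2l2: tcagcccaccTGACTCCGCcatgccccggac
Mgst1: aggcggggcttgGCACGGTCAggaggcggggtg
Their log2 ratios were 0.01, 0.09, 0.09 and 0.00, against 0.58 for Gsta3 and 0.80 for Txnrd1. The genes shown were picked from the 9 with a match, and whether a match goes with the ratio was not tested. Elements outside these windows were not searched.

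Grouped by place, the genes of mitochondria had small ratios, mostly below 0. Gstk1, Sod2, Glrx2, Prdx3, Txn2 and Glrx5, a grouping made after the values were seen, had log2 ratios from -0.41 to -0.03 with a median of -0.22, against 60.9% lower among all genes of their signal range, above 1000. All 6 were lower as deposited, but 5 of 6 after loess (median -0.18) and after quantile normalization (-0.20), where Glrx5 turned. Over all genes past both floors, the shares lower were 49.9% after loess and 50.4% after quantile normalization. Txnrd2 could not be placed. Selenoproteins did not share a direction. Txnrd1 was higher, Gpx1, Gpx4 and Msrb1 had ratios from -0.19 to -0.07, and Gpx3 and Txnrd2 had only bounds.

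Genes around the same pathways were read as further lists. Of 20 genes linked to NRF2 outside the 56, 15 were above the floor in both arrays, 8 higher and 7 lower with a median of 0.03. Of all genes past both floors 49.4% were lower. Above a mean signal of 1000, which held 11 of the 15, 60.9% were. Blvrb, a biliverdin and flavin reductase, read 1785.4 and 3391.1, 1.90-fold higher, followed by the small Maf gene Mafk at 0.32 and Osgin1 at 0.23. The pentose phosphate enzymes Tkt (-0.39) and Taldo1 (-0.25) and the ferritin chain Fth1 (-0.27) were lowest. The cystine importer gene Slc7a11 was below the floor, at 20.1 and 16.2.

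Of 10 genes around cysteine and methionine, which make, use or remake these amino acids, 9 read lower, with a median of -0.28. All 10 had mean signals above 1000, where 60.9% of all genes read lower. After loess 8 were lower, with a median of -0.16, and after quantile normalization 9, with a median of -0.20. The shares lower over all genes past both floors were then 49.9% and 50.4%. Cth, the last enzyme of transsulfuration, read 2006.8 and 1374.0 (-0.55), Ahcy, which hydrolyses adenosylhomocysteine, 18890.6 and 13705.4 (-0.46), and the aspartate aminotransferase Got1 2847.5 and 1417.7 (-1.01). Cdo1, which diverts cysteine to taurine (0.06), Mpst (-0.05) and Mat1a (-0.11) were at the other end. Among 25 further redox genes, 20 were above the floor in both arrays, 7 higher and 13 lower with a median of -0.10. Of all genes past both floors 49.4% were lower, and 10 of the 20 had mean signals above 1000. After loess the split was 10 and 10, against 49.9% of all genes lower. The lowest were Ggt6 (-0.91), Msrb3 (-0.75) and the stress-induced sestrin Sesn2 (-0.69), and the highest were the nucleoredoxin Nxn (0.57, from 262.2 near the floor), Txndc12 (0.24) and Ggct (0.15).

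For comparison, the marker genes of the liver lobule had much larger ratios in the same arrays. Both zonal lists were chosen with their results in these arrays already known, so their ratios are context only. Pericentral genes had a median of 1.05 over 13 genes, and periportal genes had a median of -1.30 over 16. Of the 42 defence genes, none lay beyond 0.80 in either direction by its brightest probe set. How far zonal position contributes to the ratios of single defence genes was not tested.

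**Figure D4:**
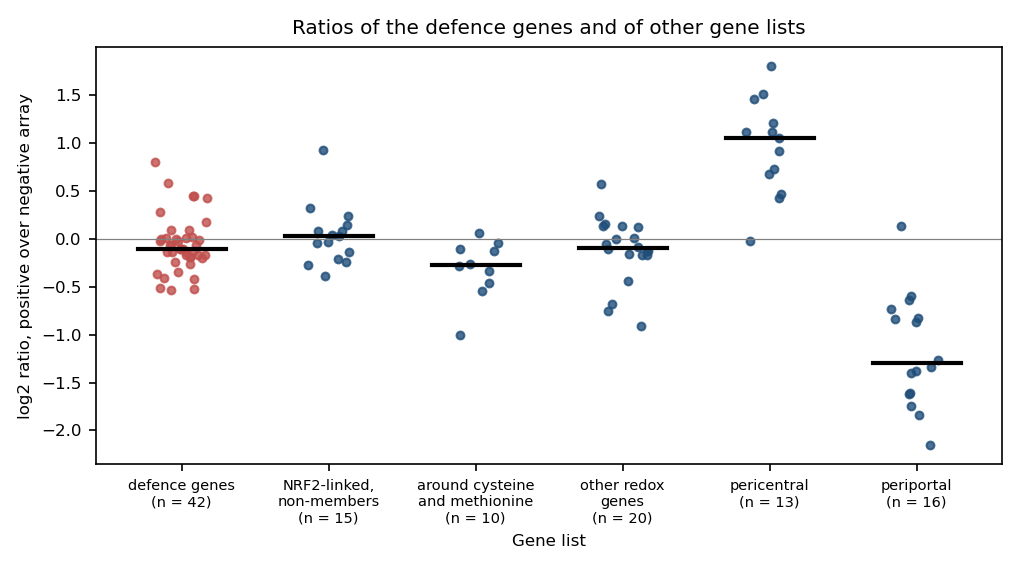
log2 ratios, positive over negative, of the 42 defence genes (red) and of 5 other gene lists (blue), each point a gene that passed both floors and each bar the median of its list. The defence genes have a median of -0.11 and the list of genes around cysteine and methionine -0.28, while the pericentral and periportal lists lie at 1.05 and -1.30.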

How the data were processed

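The authors deposited 1 signal intensity per probe set and array on a linear scale for Affymetrix Mouse Genome 430 2.0 arrays, made with MAS5 per the submitters' processing notes. Software version, detection calls and genome build: not given in the sources used here. Both arrays have a 2% trimmed mean of 500, so a shift of the whole transcriptome cannot be seen. Of 45101 probe sets, 34945 carried 1 gene symbol, 932 several, 9160 none and 64 were controls, by an annotation from GEO's platform record, and 34741 matched RefSeq by Entrez ID, with 0 symbols changed.

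The probe set with the highest mean signal stood for its gene. Other definitions of the brightest probe set were compared with gene counts from an earlier treatment of these data. None matched, and the mean was kept. The floor was first taken with sweet and umami taste receptors and without pseudogenes, which left 0 defence genes at 2-fold. It was then changed, with both outcomes seen, to the set that gives the floors of the earlier treatment (bitter taste receptors only, pseudogenes kept), and the 2-fold call of Txnrd2 depends on that change. Where 1 array was below its floor, the dim signal was raised to the floor and the ratio given as a bound, and a bound that pointed away from the measured side was set to 0 (875 of 1816 genes). Ratios are log2 of positive over negative signal. With 1 array per group no test exists. The number of arrays limits the precision. Both signals are given for genes with an absolute log2 ratio of at least 0.5, for genes whose probe sets differ in sign and for a set of central genes. From other lists the 3 highest and 3 lowest are named.

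Members and lists were chosen with earlier results of these data known. Alternatives concerned scaling, floor, choice of probe sets, bounds and an offset. Python 3.11.15, pandas 2.3.3 and statsmodels 0.14.6 (loess, span 0.3) were used.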

Additional observations from a re-analysis of the deposited data

How the results depend on the processing

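The values were recomputed under 9 other settings and under 3 chosen after seeing the data: the second brightest probe set, the probe set with the highest single signal, and the floor first used, with sweet and umami taste receptors and without pseudogenes. The count of genes at least 2-fold higher was 1 (Txnrd2). It was 0 after quantile normalization, with the 99th percentile floor, with 1 common floor and without shared or mixed probe sets. It was also 0 with an offset of 50 and with the floor first used. Without a floor it was 3. With the second brightest probe set and with the highest single signal it was 2, with Txnip in both. In the former setting, a gene without a second probe set past both floors kept its brightest, as Txnrd2 did. The second brightest of Txnrd2, 1449097_at, has a bound of 0.93 on the log2 scale, below 2-fold. The count at least 1.5-fold higher, 3, was 1 with the 99th percentile floor and 6 without a floor. The count at least 1.5-fold lower, 0, was 1 without a floor (Gpx8) and 1 with the highest single signal (Prdx4). The median of -0.11 became -0.031 after quantile normalization, -0.0068 after loess and -0.022 without shared or mixed probe sets (28 genes left). The causes were not tested. Of 514 values of single genes, 10 moved by more than the SD between probe sets. Many of the 514 could not move. Other floors and bounds leave genes far above the floor unchanged, and 23 genes had only 1 probe set past both floors. The sign turned in 26 values of 13 genes. Of the genes past the SD between probe sets 1 turned, Nqo2 (0.44 to -0.18 with the second brightest probe set). Of those past 1.5-fold, Txnrd1, Txnrd2 and Gpx3, 0 turned. That says little of Txnrd2 and Gpx3. Gpx3 has 1 probe set, and the Txnrd2 probe sets that read lower stood for the gene in no setting. The second brightest probe set moved 5 of the 10 (Gclc, Gpx4, Txnrd1, Txnip and Nqo2), and the highest single signal 3 (Gclc, Txnip and Prdx4). The 99th percentile floor moved Gpx3 (to 0.34) and Txnrd2 (to 0.58). Of 19 genes with more than 1 probe set past both floors, 9 had ratios of both signs. Genes near the floor, among them Nqo1, Hmox1, Gpx3 and Txnrd2, are limited by background. No paired analysis was possible because each group has 1 array.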
